A study of Mus musculus with 12 samples.

Results

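Ciart and Nfil3 are genes of transcriptional repressors that act in or beside the circadian clock, and each was measured by 1 probe set among the 12411 probe sets of the array. They are 2 of 7542 genes that had a probe set of their own. The members were all probe sets annotated to Ciart or Nfil3 alone, which gave 2 probe sets, and 0 further probe sets named either gene together with another. The genes were selected on earlier kainate results of these same arrays, chiefly the higher Ciart value after kainate in controls. Their kainate differences are therefore described here without a test, and tests are given for the comparisons between genotypes. Those that include the control kainate arrays share the values that led to the choice of Ciart.

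The samples were 12 Affymetrix MG-U74B arrays, each with RNA from mouse hippocampus, in 4 groups of 3. The groups were labelled mutant with kainate, labelled mutant with saline, control with kainate and control with saline. Kainate, which activates glutamate receptors and provokes seizures, was injected into the peritoneum at 20 mg/kg, and the hippocampus was taken after 1 h. All animals were littermates of both sexes aged 5 to 6 weeks, caged singly and handled for 5 days, and each array carried pooled RNA of 3 animals. By the title of the series the mutants lack CREB and CREM. The labels leave out the alleles, any promoter that restricts the loss to some cells, the strain and the time of day of the injection. The 3 arrays of a group are called biological replicates in the labels, and no source says more about how the pools were made up.

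In the clock of mammalian cells, CLOCK and BMAL1 bind E-boxes and switch on genes whose products then repress them. CIART, also called CHRONO, is one of these repressors and acts on BMAL1. NFIL3, also called E4BP4, is a basic leucine zipper repressor that binds D-boxes, where it competes with the activators DBP, TEF and HLF. CREB and CREM bind cAMP response elements (CREs), through which neuronal activity and light reach several clock genes. The hippocampus keeps a local clock of its own, outside the suprachiasmatic nucleus that leads the rhythm of the body.

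The regions just before the gene starts of both members are shown because E-boxes carry the clock's own input and CREs are the sites of the factors named in the title. Each sequence is the 250 bases before the RefSeq start in the GRCm38.p6 build, on the minus strand, at chr3:95882229-95882478 for Ciart and chr13:52981040-52981289 for Nfil3. Capitals mark each CACGTG E-box in Ciart and each match to the CRE core TGACG, on either strand, in Nfil3.
Ciart: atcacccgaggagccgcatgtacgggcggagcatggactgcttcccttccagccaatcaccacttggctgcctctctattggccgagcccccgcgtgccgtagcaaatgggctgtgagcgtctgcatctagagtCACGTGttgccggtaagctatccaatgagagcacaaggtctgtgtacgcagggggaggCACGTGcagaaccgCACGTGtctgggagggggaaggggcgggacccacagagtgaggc
Nfil3: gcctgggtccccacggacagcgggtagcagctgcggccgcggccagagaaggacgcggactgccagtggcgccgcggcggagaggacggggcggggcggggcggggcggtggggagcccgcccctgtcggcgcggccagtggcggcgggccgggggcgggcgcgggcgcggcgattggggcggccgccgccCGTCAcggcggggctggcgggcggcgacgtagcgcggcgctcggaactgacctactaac

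The Ciart region held 3 E-boxes, which begin 116, 58 and 44 bases before the start. At least 1 E-box stood in 6.02% of 32851 regions of the same length, and at least 3 stood in 20 of them (0.0609%). Searches on both strands for the full CRE TGACGTCA, its core TGACG, the E-box variant CACGTT, the D-boxes TTATGTAA and TTACGTAA and the CArG box found 0 matches in this Ciart window. The Nfil3 region held 1 CRE core, 59 to 55 bases before the start, and 17.8% of regions held at least 1. It had 0 matches to the E-box, the E-box variant, the full CRE, which contains the core, the D-boxes and the CArG box. The bases G and C made up 81.6% of the Nfil3 window and 62.0% of the Ciart window. These matches describe letters only.

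Array medians lay between 3.77 and 4.07 on the log2 scale, and 5741 to 6378 probe sets an array had a value over 4. A probe set was tested if at least 3 of the 12 arrays had a value over 4, which 6334 did, and both members were among them. Of 23 listed hippocampal neuron markers 7 were tested, among them Nptx1 at 11.5 to 11.9, Fibcd1 at 7.82 to 9.10 and Neurod2 at 7.50 to 8.73. Neurod1 (2.62 to 3.78) and Tdo2 (2.04 to 2.403) stayed under 4 in all arrays. The Creb1 probe set was not lower in labelled mutant arrays. It averaged 7.97 ± 0.44 with kainate and 8.23 ± 0.12 with saline in labelled mutant arrays, against 6.98 ± 0.15 and 7.35 ± 0.35 in control arrays (SD, n = 3 each). The Crem probe set stayed between 2.82 and 3.35 in all arrays and was not tested. No source used here places these probes relative to a deleted region, so they check nothing, and each direction between genotypes below rests on the labels.

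Ciart stood higher after kainate with either label, and highest in control arrays. Its log2 values were 6.26, 7.09 and 7.15 in labelled mutant kainate arrays (replicates 1, 2 and 3) and 5.89, 5.68 and 5.60 in labelled mutant saline arrays. They were 7.69, 7.81 and 7.77 in control kainate arrays and 5.77, 5.99 and 6.10 in control saline arrays. All kainate values exceeded all saline values of the same label, and replicate 1 of labelled mutant kainate was the lowest kainate array. The group means were 6.84 ± 0.50 in labelled mutant kainate, 5.72 ± 0.15 in labelled mutant saline, 7.76 ± 0.06 in control kainate and 5.95 ± 0.17 in control saline arrays (SD, n = 3 each). In this order of levels, control kainate lay above labelled mutant kainate and that group above control saline without overlap. The ranges of the 2 saline groups overlapped.

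**Figure D1:**
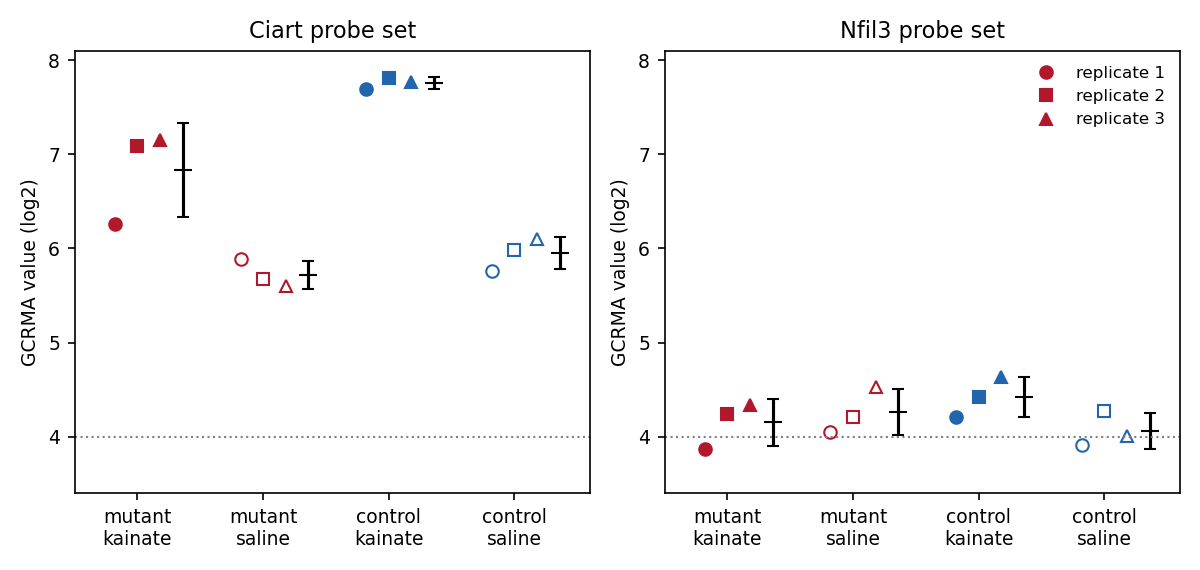
GCRMA values (log2, vertical axis) of the Ciart and Nfil3 probe sets in each array of the 4 groups as labelled. Red is labelled mutant and blue is control, filled symbols are kainate and open ones saline, symbol shapes are replicate numbers, black bars are mean ± SD (n = 3), and the dotted line is the level of 4 used in the filter. Ciart lies between 6.26 and 7.81 in kainate arrays and between 5.60 and 6.10 in saline arrays, whereas Nfil3 stays between 3.87 and 4.64 in all 12.

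The Ciart difference between kainate and saline was 1.11 (2.16-fold, SE 0.216) in labelled mutant arrays and 1.81 (3.50-fold, SE 0.216) in control arrays. These were the 18th and the 5th largest positive differences among 6334 probe sets. By limma with Benjamini-Hochberg adjustment, 11 probe sets rose in labelled mutant arrays (0.174% of those tested) and 9 rose in control arrays (0.142%). Ciart was among the 9 and not among the 11, and the values of both comparisons were in view when it was chosen. Groups without overlap and with kainate higher were found for 3.66% of probe sets in labelled mutant and for 13.1% in control arrays. In bulk RNA, more transcript per cell and more cells that carry it cannot be told apart.

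The arrays shared their replicate numbers across groups, so the response was also read within each number. The Ciart response in labelled mutant arrays was 0.37, 1.42 and 1.55 for replicates 1, 2 and 3 (mean 1.11 ± 0.65, SD over 3 numbers). In control arrays it was 1.92, 1.82 and 1.67 (mean 1.81 ± 0.13). The 3 control responses were alike, while the first labelled mutant pair gave a small one. Without replicate 1 of labelled mutant kainate, the Ciart difference in labelled mutant arrays was 1.40.

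Nfil3 stayed close to the level of 4 in every array. Its log2 values were 3.87, 4.24 and 4.34 in labelled mutant kainate arrays and 4.05, 4.21 and 4.53 in labelled mutant saline arrays. In control arrays they were 4.21, 4.42 and 4.64 with kainate and 3.91, 4.28 and 4.003 with saline. All 4 groups overlapped with their neighbours in the order of levels. Group means were 4.15 ± 0.25 in labelled mutant kainate, 4.26 ± 0.25 in labelled mutant saline, 4.42 ± 0.22 in control kainate and 4.06 ± 0.19 in control saline arrays (SD, n = 3 each). The kainate difference was -0.11 (SE 0.174) in labelled mutant arrays and 0.36 (1.28-fold, SE 0.174) in control arrays. By replicate number it was -0.18, 0.03 and -0.19 in labelled mutant arrays and 0.30, 0.14 and 0.63 in control arrays. The sign in labelled mutant arrays turned without replicate 3 of labelled mutant saline (0.02) or without replicate 1 of labelled mutant kainate (0.03). The suffix of the Nfil3 probe set marks a set with fewer unique probes than the array design called for.

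The Nfil3 pattern over the 12 arrays was shared by many other probe sets of similar level. After each probe set was centred on its own mean, likeness was taken as the root-mean-square distance over the 12 arrays on the log2 scale. The 5 nearest named probe sets were those of Stoml2 at 0.0195, Slco1b2 at 0.0230, Dnm1l at 0.0259, Mogat1 at 0.0261 and E330020D12Rik at 0.0272, while the Nfil3 profile itself spread by 0.228. Stoml2 and Dnm1l encode proteins of mitochondria, and Slco1b2 encodes an organic anion transporter of liver. Within a distance of 0.1 lay 559 of the 12410 other probe sets (4.50%), and 545 of these had a mean value under 5. The array medians were high and low in much the same arrays, being highest in replicate 3 of control kainate and of labelled mutant saline. Centring each array on its median left the Nfil3 kainate difference at -0.06 in labelled mutant and 0.22 in control arrays. Whether the Nfil3 transcript contributes to this probe set's values was not tested.

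**Figure D2:**
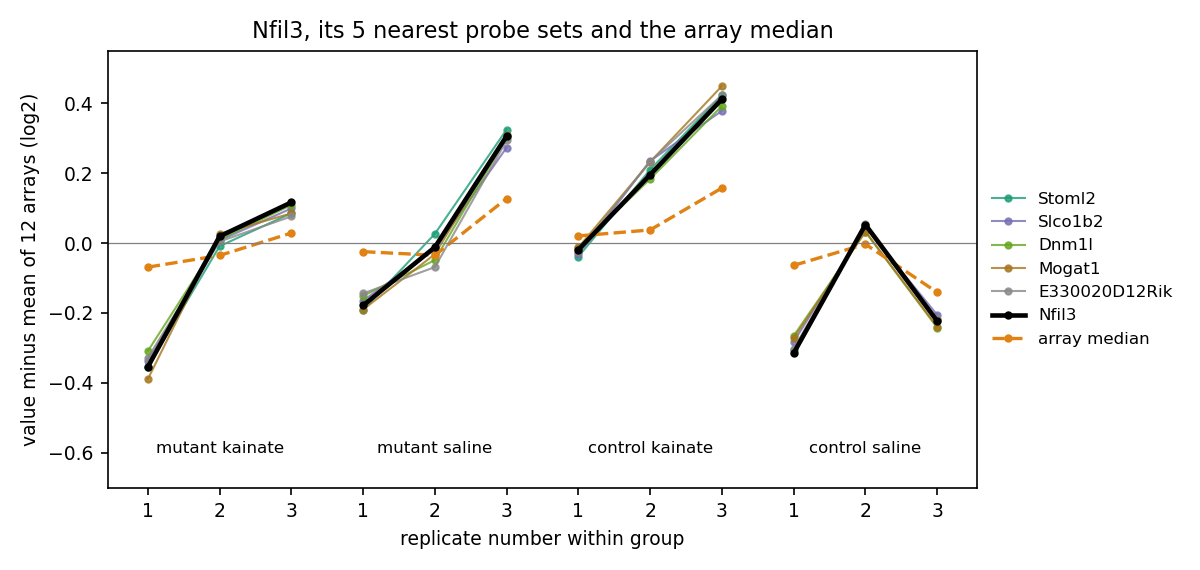
Value of each array minus the probe set's mean over 12 arrays (log2, vertical axis) for Nfil3 (black), its 5 nearest probe sets (thin lines) and the array median (dashed), by replicate number within each group as labelled. Lines join the points of 1 probe set within a group and mark no order. The 5 neighbours, at distances of 0.0195 to 0.0272, nearly cover the Nfil3 line.

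By this distance Ciart had no such crowd around it. Within a distance of 0.3 lay 0 of the 12410 other probe sets, against 68.2% for Nfil3. The distance is in log2 units and most probe sets varied little, so a widely spread profile lies far from them whatever its shape. The contrast with Nfil3 therefore does not show that the Ciart pattern is distinct. The 4 nearest named ones were those of Dot1l, a histone H3 methyltransferase (0.390), Fosl2, an AP-1 subunit (0.395), Csrnp1, an immediate early nuclear factor (0.408), and Vgf, a neuropeptide precursor (0.449). The Ciart profile itself spread by 0.835, and Nfil3 stood in place 686 at a distance of 0.755. The likeness is a description of 12 arrays.

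Read by replicate number, the first labelled mutant pair gave the smallest labelled mutant response for each of these 4 neighbours, as it did for Ciart. They were picked for likeness to Ciart over these same arrays, so this agreement is part of how they were chosen. Dot1l gave 0.39, 1.33 and 0.49 in labelled mutant pairs, against 1.05, 1.01 and 1.45 in control pairs. Csrnp1 gave 1.50, 2.33 and 2.28 in labelled mutant pairs, against 2.51, 2.27 and 2.26 in control pairs. In control arrays the first pair was the highest for Csrnp1, as for Ciart, and the lowest for Vgf and Fosl2. Vgf gave 0.85, 1.62 and 1.57 in labelled mutant pairs, against 0.72, 1.41 and 0.86 in control pairs. Fosl2 gave 0.97, 1.11 and 1.09 in labelled mutant pairs and 0.70, 1.27 and 1.13 in control pairs. Of the probe sets that limma called for kainate with either label, 12 rose on average, Ciart and Nfil3 left out. Their median response was 1.39, 1.58 and 1.48 in labelled mutant pairs and 1.39, 1.34 and 1.25 in control pairs. These 12 were called on the same arrays.

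**Figure D3:**
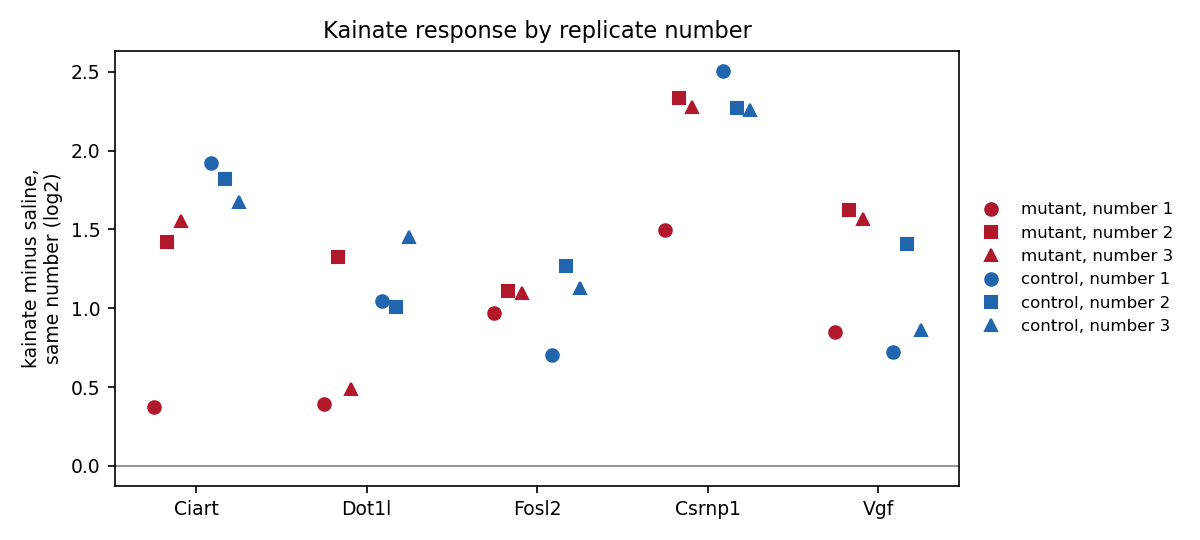
Kainate minus saline within the same replicate number (log2, vertical axis) for Ciart and its 4 nearest genes, with labelled mutant in red and control in blue and symbol shapes for the numbers. The first labelled mutant pair of Ciart lies at 0.37, apart from the other five Ciart points between 1.42 and 1.92.

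The question of the series title is whether the kainate response differs between genotypes. The Ciart response was smaller by 0.69 in labelled mutant than in control arrays (difference -0.69, SE 0.305). This did not pass over all probe sets (limma adjusted p = 1). Ciart was chosen chiefly for its response in control arrays, with the labelled mutant values also in view. The choice itself therefore favours a negative difference, and the value is a description rather than independent evidence. By replicate number the difference was -1.55, -0.40 and -0.12, negative in 3 of 3 numbers and mostly in the first. With arrays numbered 2 and 3 alone it was -0.26 (limma adjusted p = 0.741). For Nfil3 the difference of responses was -0.47 (SE 0.246, 95% interval -1.01 to 0.08, limma adjusted p = 1), with -0.47, -0.11 and -0.82 by number. Of all 6334 probe sets 0 passed this test (0%), while 147 had p under 0.05 before adjustment.

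With saline, Ciart and Nfil3 did not differ detectably between genotypes. The Ciart difference was -0.23 (SE 0.216, 95% interval -0.71 to 0.25, limma adjusted p = 1), and it was 0.12, -0.31 and -0.50 by number. The Nfil3 difference was 0.20 (SE 0.174, 95% interval -0.18 to 0.59, limma adjusted p = 1), with 0.14, -0.06 and 0.53 by number. With 1 array left out it ran from 0.07, without replicate 3 of labelled mutant saline, to 0.31, without replicate 1 of that group. Here limma called 0 of 6334 probe sets (0%), while 246 had p under 0.05 before adjustment. The intervals leave room for a Ciart level up to 0.71 lower or 0.25 higher in labelled mutant arrays.

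After kainate, all 3 labelled mutant arrays had less Ciart signal than all 3 control arrays. Values of 6.26 to 7.15 stood against 7.69 to 7.81, and groups without overlap and lower in labelled mutant arrays were found for 7.63% of probe sets. The difference was -0.92 (1.89-fold lower, SE 0.216, 95% interval -1.40 to -0.44 before adjustment), the 9th largest negative difference of 6334. By replicate number it was -1.43, -0.72 and -0.62. It did not pass over all probe sets (unadjusted p = 0.00149, limma adjusted p = 0.392), where 2 were higher and 2 lower (0.0632% together). The control kainate arrays of this comparison are also those whose high Ciart values led to its choice, so the choice itself favours a negative difference here. The Ciart value, its interval and its p-values are therefore a description rather than independent evidence. With array quality weights, which gave replicate 1 of labelled mutant kainate the lowest weight (0.247), the difference was -0.72 and passed (limma adjusted p = 0.0264). Replicate 1 also had the lowest weight of its group in labelled mutant saline (0.415), control kainate (0.39) and control saline arrays (0.495). The weights thus followed the replicate number and did not single out 1 array. Under them 42 probe sets passed in this comparison, against 4 without. Without replicate 1 of labelled mutant kainate the Ciart difference was -0.63 (limma adjusted p = 0.406). Nfil3 differed by -0.27 after kainate (SE 0.174, 95% interval -0.65 to 0.12, limma adjusted p = 0.914), at -0.33, -0.18 and -0.29 by number. Without replicate 1 of labelled mutant kainate the Nfil3 value was -0.13, and without replicate 3 of control kainate it was -0.16.

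Summed microglia and astrocyte markers lay higher in labelled mutant than in control arrays with either treatment, though limma called no single marker. Summed linear values of the 4 tested of 12 microglia markers ran from 336.8 to 386.7 in labelled mutant kainate arrays and from 237.6 to 264.2 in control kainate arrays. The 7 tested of 13 astrocyte markers summed to 13920 to 14630 in labelled mutant kainate and 11710 to 13520 in control kainate arrays. Sums of the 7 hippocampal neuron markers were 4547 to 4775 in labelled mutant kainate and 4845 to 5606 in control kainate arrays. None of these 3 pairs of ranges overlapped. Among single probe sets, 7.63% lay lower in labelled mutant kainate arrays without overlap, and no such share was counted for sums or for the higher direction. Linear sums give most weight to the highest probe set, here Nptx1 for hippocampal neurons and Slc1a2 (log2 12.97 to 13.33) for astrocytes. Gene by gene, labelled mutant minus control with kainate was above 0 for 4 of 4 microglia markers (median 0.66). It was above 0 for 6 of 7 astrocyte markers (median 0.23) and for 2 of 7 hippocampal neuron markers (median -0.10). Ranges for the tested oligodendrocyte (2), endothelial (2), choroid plexus (1) and interneuron (3) markers overlapped. Of 26 tested markers limma called 0, while 10 had p under 0.05 before adjustment (38.5%, against 4.67% of all tested probe sets). With saline, where Ciart did not differ detectably, microglia markers summed to 261.7 to 349.5 in labelled mutant and 214.1 to 222.4 in control arrays, and astrocyte markers to 14660 to 15830 and 12780 to 13320, also without overlap. The ranges of the other tested marker lists overlapped with saline. Gene by gene, labelled mutant minus control with saline was above 0 for 4 of 4 microglia markers (median 0.58) and 7 of 7 astrocyte markers (median 0.27). It was above 0 for 2 of 7 hippocampal neuron markers (median -0.25). In that comparison limma called 0 of 26, and 7 had p under 0.05 before adjustment (26.9%, against 3.88%). With the replicate number added to the fit 1 of 26 passed, a hippocampal neuron marker that was lower in labelled mutant arrays.

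For kainate in control arrays, the choroid plexus marker Clic6 had linear values of 18.22 to 54.38 with kainate and 77.94 to 105.5 with saline, a log2 difference of -1.54 and without overlap. Likewise interneuron markers summed to 1244 to 1396 with kainate and 1667 to 2010 with saline, while Gad1 lay between 2.24 and 2.79 in all arrays. Microglia sums were 237.6 to 264.2 with kainate and 214.1 to 222.4 with saline in control arrays, and astrocyte sums 13920 to 14630 with kainate and 14660 to 15830 with saline in labelled mutant arrays, also without overlap. Of all tested probe sets, 13.1% lay higher with kainate without overlap in control arrays. The share lying lower was not counted, nor was any share for sums, so these separations have no background to be read against. Cnr1 (log2 10.13 to 10.80) had the most weight in the interneuron sums. By gene, kainate differences in control arrays were above 0 for 0 of 3 interneuron markers (-1.26 to -0.44) and 4 of 4 microglia markers. In labelled mutant arrays 3 of 7 astrocyte markers were above 0 (median -0.04). None of the 11 suprachiasmatic nucleus markers had a probe set with that symbol alone. The part of cell composition in the Ciart values was not tested.

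RNA quality was read as the log2 signal near the 3′ end minus that near the 5′ end. For Gapdh it was 0.06, 0.44 and 0.24 in labelled mutant kainate and 0.05, 0.19 and 0.09 in labelled mutant saline arrays (replicates 1, 2 and 3). In control arrays it was 0.03, 0.46 and 0.09 with kainate and 0.13, 0.22 and 0.22 with saline. For beta-actin it was 0.80, 1.10 and 1.33 in labelled mutant kainate and 0.85, 0.88 and 0.87 in labelled mutant saline arrays. In control arrays it was 0.82, 1.29 and 1.01 with kainate and 0.83, 1.01 and 0.77 with saline. With either label, beta-actin was higher after kainate in replicates 2 and 3 and not in replicate 1, the number in which Ciart responded least in labelled mutant and most in control arrays. The part of RNA quality in the Ciart values was not tested.

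Of 18 tested genes from the clock lists, Ciart and Nfil3 left out, 0 passed in any of the 5 comparisons by limma, though Csnk1e and Bhlhe41 passed for kainate under alternatives given with their values. An unadjusted p under 0.05 was found for 1 of 18 with kainate in labelled mutant arrays (5.56%, against 6.28% of all tested) and for 1 of 18 in control arrays (5.56%, against 11.6%). Between genotypes after kainate it was found for 3 of 18 (16.7%, against 4.67%), with saline for 1 of 18 (5.56%, against 3.88%), and for the difference of the kainate responses for 0 of 18 (against 2.32%). Their median kainate difference was 0.04 in labelled mutant and -0.0059 in control arrays, beside -0.04 and 0.02 over all tested probe sets. These lists were chosen with earlier results of these arrays known, and most clock genes listed were not tested.

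Among the activators, Clock, the partner of BMAL1, differed with kainate by -0.12 in labelled mutant and -0.33 in control arrays, and its second probe set gave 0.16 and 0.09. The probe set of Arntl, which encodes BMAL1, stayed between 2.13 and 2.52 and was not tested. Among the E-box repressors, Per3 differed by -0.0071 and 0.07 and the cryptochrome gene Cry2 by -0.11 and 0.16 in labelled mutant and control arrays. Bhlhe41, which encodes the E-box repressor DEC2, gave -0.08 in labelled mutant and -0.45 in control arrays. With arrays numbered 2 and 3 alone, Bhlhe41 gave -0.80 in control arrays and passed (limma adjusted p = 0.032). Per1, which in many tissues is an immediate early gene of light and activity, had a single probe set at 2.68 to 3.09 and was not tested.

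Of the nuclear receptors of the second clock loop, the repressor Nr1d2 (REV-ERB beta) differed with kainate by -0.10 in labelled mutant and -0.44 in control arrays. Its opponent Rora gave 0.20 and 0.15, while its second tested probe set gave -0.64 and -0.54. Of the D-box activators that NFIL3 opposes, Hlf differed by 0.15 in labelled mutant and -0.03 in control arrays, and Tef stayed between 2.71 and 3.06. Among 8 tested enzymes that act on clock proteins, casein kinase 1 epsilon (Csnk1e), which phosphorylates PER proteins, had the highest mean difference, with 0.53 in labelled mutant and 0.38 in control arrays (limma adjusted p = 0.712 and 0.431). It passed in labelled mutant arrays with arrays numbered 2 and 3 alone (0.79, limma adjusted p = 0.0379) and with array quality weights (0.75, limma adjusted p = 0.00914). The related kinase Csnk1a1 gave 0.09 and 0.42, the kinase Gsk3b -0.58 and -0.42, and the AMP kinase subunit Prkaa1 -0.02 and -0.20, in labelled mutant and control arrays. The other 2 tested Gsk3b probe sets gave -0.26 and -0.20, and -0.27 and -0.0053. The 3 tested output genes were Coq10b at 0.42 and 0.30 (0.45 and 0.48 by its second probe set), Klf9 at 0.09 and 0.02, and Nampt at -0.08 and 0.06.

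**Figure D4:**
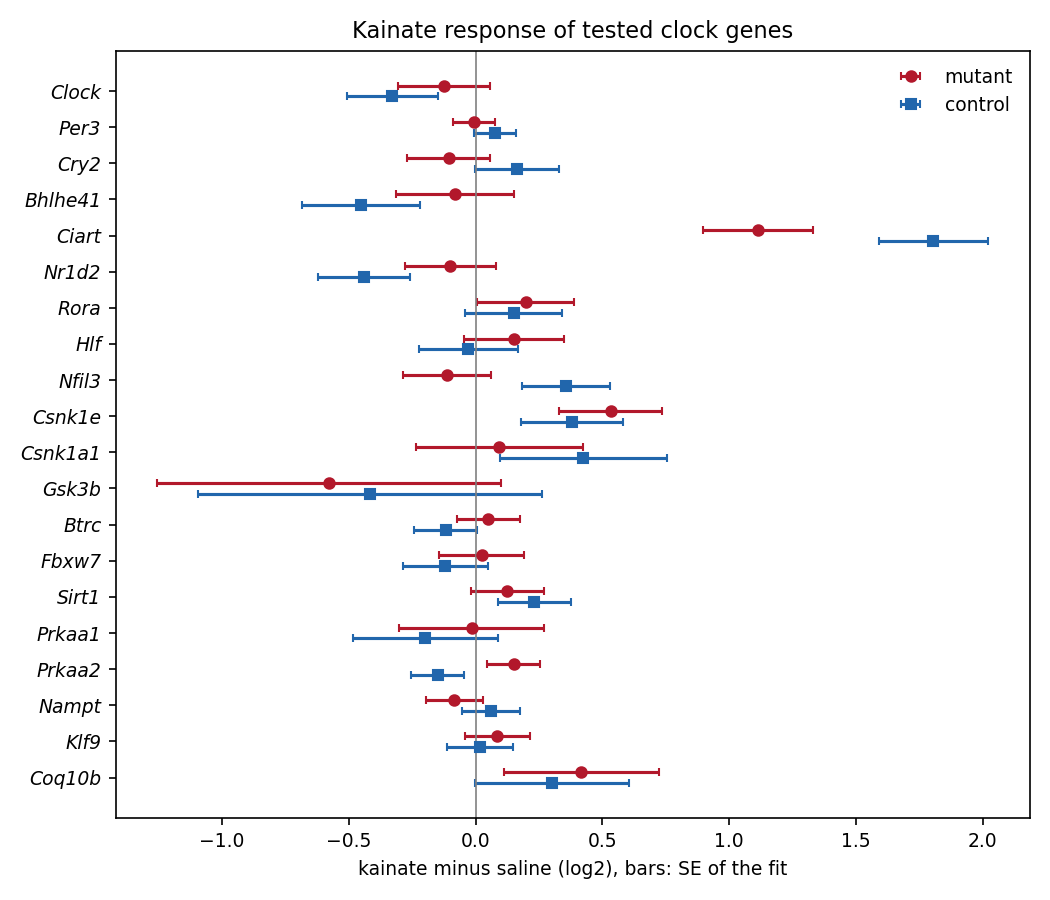
Kainate minus saline (log2, horizontal axis) for the 20 tested clock-list genes, Ciart and Nfil3 included, with labelled mutant as red circles and control as blue squares and the SE of the fit as bars. Ciart lies at 1.11 and 1.81, and the other genes lie between -0.58 and 0.53.

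Relatives and co-activators of CREB were examined because CREB and CREM are the factors named in the title. Of 8 tested genes limma called 0 in any comparison. Before adjustment 0 had p under 0.05 for kainate in labelled mutant arrays (against 6.28% of all tested) or in control arrays (against 11.6%). It was found for 1 of 8 between genotypes after kainate (12.5%, against 4.67%) and for 1 of 8 with saline (12.5%, against 3.88%). After kainate, labelled mutant minus control was 0.99 for Creb1 (limma adjusted p = 0.391), -0.05 for Atf7, 0.41 for the endoplasmic reticulum factor Creb3l2, and 0.03 and -0.20 for the acetyltransferase genes Crebbp and Ep300. The CREB co-activators Crtc1, Crtc2 and Crtc3 gave -0.09, 0.02 and 0.02. Other tested Crebbp probe sets gave 0.48, -0.02 and -0.07. Cebpg, a basic leucine zipper gene like Nfil3, was the 1 tested of 10 listed relatives, and its kainate difference was -0.25 in labelled mutant and -0.46 in control arrays.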

How the data were processed

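The deposited table held 1 log2 value per probe set and array, which the authors computed by GCRMA in R 2.4.1, per the submitters' processing notes. No source used here gives the settings or the annotation. A range of -1.05 to 13.3 points to the log2 scale. Of 12477 entries 66 were control probe sets. One gene symbol was given for 10581 probe sets, several for 178 and none for 1652, and 10550 matched the RefSeq table of GRCm38.p6 by Entrez identifier, with 0 symbols changed. Promoter sequences are RefSeq's, and both members matched.

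Using limma 3.58.1 (R 4.3.3, eBayes with an intensity trend), a mean per group was fitted to the 12 arrays over 6334 probe sets, with Benjamini-Hochberg adjustment at 0.05 within each of 5 comparisons. The calculations were tested on simulated data. Where a gene had several probe sets, the one of highest mean stands for it. Named genes were all tested members of the core clock and CREB lists, those of longer lists that passed, and the 2 highest and 2 lowest for kainate averaged over genotypes. Likeness was read over the nearest single-symbol probe sets, 5 for Nfil3 and 4 for Ciart, and 1 further Ciart neighbour is not reported here. The members and lists were chosen with earlier results of these data known.

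The replicate numbers come from the labels. Deviations from group means correlated above 0.1 in each of 18 same-numbered pairs (r from 0.361 to 0.881). In 36 pairs of other numbers r ran from -0.782 to 0.583, which overlaps that range. Differences were therefore also read by number. The SE, intervals, p-values and counts come from the fit without the block unless stated, and the block is an alternative. The other alternatives were level filters, quantile or median scaling, the variance model, array weights and left-out arrays. The number of arrays limits the precision. If pools share animals or batches, the p-values measure that spread alone.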

Additional observations from a re-analysis of the deposited data

How the results depend on the processing

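With the replicate number as a replicate block, no call of Ciart or Nfil3 changed in the comparisons between genotypes or in the difference of responses. After kainate the Ciart difference stayed at -0.92 with a limma adjusted p of 0.102, and the difference of responses at -0.69 with 0.545. Their kainate differences were not tested, so calls for those are not compared here. Over 21 alternatives the Ciart difference after kainate ran from -1.08 to -0.63 with adjusted p from 0.0264 to 0.918, and it passed with array quality weights alone (-0.72). The Ciart kainate difference in labelled mutant arrays was 1.49 with arrays numbered 2 and 3 alone, and 0.95 to 1.40 when 1 array was left out; in control arrays it ran from 1.71 to 1.88 when 1 array was left out. The Ciart difference of responses ran from -0.85 to -0.26 and that with saline from -0.41 to -0.16, and neither passed in any alternative. The Nfil3 kainate difference in labelled mutant arrays turned to 0.017 with array quality weights, to 0.022 without replicate 3 of labelled mutant saline and to 0.029 without replicate 1 of labelled mutant kainate, and with 1 array left out ran from -0.22 to 0.029. Nfil3 could not be fitted with a level filter over 5. Clock genes that passed numbered 1 with array quality weights and 1 with arrays numbered 2 and 3 alone in labelled mutant arrays for kainate, and 1 in control arrays with numbers 2 and 3 alone, against 0. The kainate difference averaged over genotypes lies outside the 5 comparisons. For it, the block passed Gsk3b (-0.50, limma adjusted p = 0.0421) and the second Coq10b probe set (0.47, limma adjusted p = 0.0209). The other tested probe sets of these genes did not pass there.

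Over all probe sets, kainate calls in labelled mutant arrays numbered 11, against 23 with the block, 21 with the block and quantile normalization, 1169 with array quality weights, 596 with numbers 2 and 3 alone, and 6 to 17 with 1 array left out. In control arrays they numbered 10, against 37, 26, 254, 637 and 4 to 14. Labelled mutant against control gave 4 after kainate, against 7, 8, 42, 12 and 1 to 5, and 0 with saline, against 9, 1, 20, 5 and 0 to 1. The causes were not tested. Centring arrays on their medians moved the median of all tested probe sets to -0.12 for kainate in control arrays and to 0.17 for the difference of responses; there the Ciart values were 1.67 and -0.50.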

Other observations

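Other measures of likeness left the same kind of genes beside Ciart. After the mean of each replicate number was also removed, the nearest were Dot1l (0.381), Vgf (0.386), Csrnp1 (0.393), Fosl2 (0.394) and Kdm6b (0.434), which encodes a histone H3 demethylase. Over the 4 group means they were Dot1l (0.316), Fosl2 (0.333 and, by its second probe set, 0.383), Vgf (0.360) and Kdm6b (0.370). The Kdm6b probe set averaged 4.42 in labelled mutant kainate, 3.77 in labelled mutant saline, 4.76 in control kainate and 3.52 in control saline arrays. For Nfil3, Rlim came first by both measures (0.0118 and 0.0042).

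Among 6 E-box repressor genes of the clock with a RefSeq promoter region, CACGTG stood within the 250 bases before the start in 4, namely Per1, Cry1, Bhlhe41 and Ciart. It stood in 0 of 4 activator genes, 0 of 4 nuclear receptor genes and 1 of 4 D-box factor genes, Tef. Of 17 output genes 5 held it (Coq10b, Fkbp5, Avp, Prok2 and Ciart), and of 20 genes acting on clock proteins 1 did (Sirt1). The first listed region of each gene was read, and 6.02% of all 32851 regions held an E-box. The CRE core TGACG stood in Per1, Cry1 and Cry2 of the repressors and in Hlf and Nfil3 of the D-box factors, and the full CRE stood in Hlf. The core also stood in 5 of 17 output genes, Nfil3 included, and 5 of 20 genes acting on clock proteins. Over all regions 17.8% held the core and 1.55% the full CRE.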
